A study of Mus musculus with 12 samples.

Results

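The 31 genes described here encode the enzymes and carriers that bring pyruvate into the mitochondrion, run the tricarboxylic acid (TCA) cycle and move carbon between malate, glutamate and alanine. They were taken by gene symbol from gene count tables of 48709 Ensembl identifiers, and all 31 were found and had enough counts to be tested among 14408 genes. The tables came from bulk RNA sequencing of cultured mouse embryonic fibroblasts (MEFs) of the C57BL/6 strain, with 12 libraries in 4 groups of 3. The series concerns cardiolipin remodelling and the HIF-1a response to low oxygen. WT normoxia and WT hypoxia are wild-type cells at ordinary oxygen and after 24 hours in a hypoxia workstation. TAZKo normoxia and TAZKo hypoxia are cells labelled as lacking tafazzin, the transacylase that remodels the mitochondrial lipid cardiolipin, in the same conditions. All groups grew in the same serum-supplemented medium, and the labels do not say how the gene was disrupted, how many clones were used, what oxygen level was set or whether the 3 samples of a group were separate cultures. The p-values below therefore measure only the spread between these samples, which may be technical.

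Pyruvate made by glycolysis enters mitochondria through the carrier built from MPC1 and MPC2, and the pyruvate dehydrogenase complex turns it into acetyl-CoA, which citrate synthase joins to oxaloacetate. The cycle then oxidises citrate through isocitrate, 2-oxoglutarate, succinate, fumarate and malate, while malic enzymes, glutamate dehydrogenase and the transaminases add or withdraw carbon. In low oxygen, cells are known to turn pyruvate towards lactate, and hypoxia-inducible factor (HIF) drives the kinases that switch pyruvate dehydrogenase off.

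Promoter sequence is shown for 5 enzymes that carry the results below, to let their upstream regions be read side by side: Suclg2, the cycle gene with the largest fall in hypoxia, Fh1, which fell with both hypoxia and genotype, Idh1, the 1 member whose hypoxia response differed by genotype, and the transaminase genes Gpt2 and Got1, which went opposite ways with genotype. Each run comes from the 250 bases before the RefSeq start (build GRCm38.p6) nearest the gene's outermost annotated start. It reads 5′ to 3′ on the gene's own strand. Bases that fall inside the annotated gene were cut, which left 229 bases for Idh1, so that run stops short of its RefSeq start. Capitals mark matches on either strand to the HIF core (ACGTG or GCGTG), the amino acid response element core (TGATGNAA, bound by ATF4-type factors) and the GC box (GGGCGG). Adjacent matches can overlap, as a pair of the Suclg2 GC boxes do.
Suclg2 chr6:95718847-95719096, minus strand: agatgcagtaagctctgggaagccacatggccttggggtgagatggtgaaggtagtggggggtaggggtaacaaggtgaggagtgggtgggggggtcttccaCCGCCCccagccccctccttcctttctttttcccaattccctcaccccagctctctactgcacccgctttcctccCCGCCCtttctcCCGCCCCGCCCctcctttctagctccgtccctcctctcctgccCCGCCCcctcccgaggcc
Fh1 chr1:175625636-175625885, minus strand: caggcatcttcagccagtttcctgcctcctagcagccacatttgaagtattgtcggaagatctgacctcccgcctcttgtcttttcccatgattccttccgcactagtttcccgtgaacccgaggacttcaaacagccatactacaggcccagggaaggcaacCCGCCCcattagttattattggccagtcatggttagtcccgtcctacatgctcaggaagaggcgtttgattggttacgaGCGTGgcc
Idh1 chr1:65186501-65186729, minus strand: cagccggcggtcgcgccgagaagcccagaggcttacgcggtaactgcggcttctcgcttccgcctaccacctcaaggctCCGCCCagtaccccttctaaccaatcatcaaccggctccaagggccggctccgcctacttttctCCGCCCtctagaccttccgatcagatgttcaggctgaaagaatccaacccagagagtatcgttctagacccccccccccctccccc
Gpt2 chr8:85492326-85492575, plus strand: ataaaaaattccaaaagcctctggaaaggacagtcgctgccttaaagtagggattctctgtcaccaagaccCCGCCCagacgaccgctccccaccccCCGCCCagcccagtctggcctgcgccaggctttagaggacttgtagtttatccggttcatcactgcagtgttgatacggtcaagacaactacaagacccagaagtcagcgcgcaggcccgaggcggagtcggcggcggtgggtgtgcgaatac
Got1 chr19:43524606-43524855, minus strand: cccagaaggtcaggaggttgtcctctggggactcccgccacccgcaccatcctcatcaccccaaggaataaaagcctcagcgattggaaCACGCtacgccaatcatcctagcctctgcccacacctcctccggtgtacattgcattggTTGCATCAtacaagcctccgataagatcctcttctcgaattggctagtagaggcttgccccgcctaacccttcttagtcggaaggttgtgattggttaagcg
The Suclg2 run of 250 bases held 5 GC boxes, Fh1 held 1 HIF core and 1 GC box, Idh1 held 2 GC boxes in 229 bases, Gpt2 held 2 GC boxes, and Got1 held 1 HIF core and 1 amino acid response core. RefSeq lists another Idh1 start inside the gene, whose upstream window does hold GCGTG. Promoter entries were matched for 29 of the 31 members; Idh3a and Me2 are named only. Over the 38 windows of 250 bases before a listed start of a member, 50% held GCGTG against 28.2% of all 32851 windows, 28.9% held ACGTG against 16.6%, 63.2% held the GC box against 32.7%, and 5.26% (2 windows, of Got1 and Me3) held the amino acid response core against 3.45%. Several windows belong to 1 gene and overlap, so these shares are a description of letters and not of binding.

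Total counts per library ran from 21039451 to 31204510, and 3 counts corresponded to 0.0927 to 0.15 CPM (normalised read counts, on library sizes scaled by the TMM method of edgeR). The tafazzin gene itself, Taz, had 859, 758 and 902 counts in WT normoxia against 1089, 919 and 1325 in TAZKo normoxia. After hypoxia it had 510, 589 and 646 counts in WT against 691, 948 and 1006 in TAZKo. Its transcript was therefore higher, not lower, in the libraries labelled TAZKo, by 0.29 on the log2 scale in normoxia (edgeR adjusted p = 0.0139) and by 0.43 in hypoxia (edgeR adjusted p = 0.00112). A disruption that leaves the transcript in place cannot be seen in gene counts, so the genotype is called by its label throughout. WT normoxia 1 stood apart from the other libraries on the third principal component (35.7 against -13.4 to 10.5) and had the lowest share of mitochondrial counts, 0.921% against up to 1.93%. All 8 fibroblast markers had counts, with a sum of 5060 to 6070 CPM in WT normoxia, 4170 to 4380 in TAZKo normoxia, 7030 to 8080 in WT hypoxia and 5590 to 5990 in TAZKo hypoxia, but over the 12 libraries the defining marker Thy1 lay at 0.0867 to 0.291 CPM and Col1a2 at 1.51 to 5.93. The sum is carried by Col1a1 and Vim, and its genes did not move together. Between WT and TAZKo normoxia, the mean of Col1a1 was 2830 against 1150 CPM, that of Vim 1280 against 1740 and that of Pdgfrb 49.6 against 104. Col3a1, Pdgfra, Pdgfrb and Dcn had lower means in hypoxia than in normoxia in both genotypes, while Vim and Col1a1 had higher ones. Endothelial markers summed to 15.5 to 17.5 CPM in WT normoxia, 4.75 to 6.34 in TAZKo normoxia, 11.4 to 16.9 in WT hypoxia and 2.82 to 3.81 in TAZKo hypoxia, nearly all of it Tek. Pecam1 stayed at or below 0.618 CPM, with means of 0.227 in WT normoxia and 0.577 in TAZKo normoxia, against the direction of Tek, and Cdh5 at or below 0.0692. Epithelial and muscle markers did not exceed 0.869 CPM, pluripotency and neural crest markers did not exceed 3.4, and Adgre1, Myod1 and Pou5f1 were at 0. Leukocyte markers, nearly all Cd68, summed to 2.9 to 3.36 CPM in WT normoxia and 6.7 to 7.93 in WT hypoxia, and to 3.47 to 4.33 in TAZKo normoxia and 5.95 to 7.39 in TAZKo hypoxia, with no overlap between conditions. The fibroblast and endothelial sums moved with genotype and the fibroblast and leukocyte sums, and in TAZKo the endothelial sum, with oxygen. The small epithelial, pluripotency and neural crest sums also lay apart between genotypes in both conditions, as did the leukocyte sum in normoxia. The neural crest sum was lower in hypoxia in both genotypes, and the pluripotency sum in WT. The part of these sums in the results below was not tested. In bulk RNA, fewer cells of a kind and less RNA per cell cannot be told apart.

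After 24 hours of hypoxia the mitochondrial cycle genes were lower as a group, while the cytosolic isocitrate dehydrogenase gene Idh1 and the malic enzyme gene Me2 were higher. In cells labelled WT, 16 of the 31 members fell and 6 rose (71% called), against 51.0% of all genes tested, of which 25.0% fell and 26.0% rose. In cells labelled TAZKo, 15 fell and 4 rose (61.3% called), against 43.8% of all genes, of which 21.6% fell and 22.2% rose. The median log2 difference of the members was -0.18 in WT and -0.2 in TAZKo, against 0.009 and -0.009 over all genes. The list held genes known from earlier analysis of these samples, so its direction is not independent evidence. Both genotypes shared 14 members called lower (D2hgdh, Dlat, Dlst, Fh1, Idh2, Idh3a, Idh3b, Idh3g, Mdh1, Mpc1, Ogdh, Pdhx, Suclg1 and Suclg2) and 4 called higher (Glud1, Idh1, Me2 and Me3). Calls at a log2 difference of at least 1 were made for 4 members in WT and 2 in TAZKo, where 11.2% and 8.44% of all genes passed that size. Me3 is counted in both, with the limit from the count filter given below. The libraries ran on 2 sequencing lanes, with number 1 of each group on lane 4, number 3 on lane 5 and number 2 on lane 4 in normoxia and lane 5 in hypoxia. All 22 calls in WT and 19 in TAZKo kept their sign within both lanes, where a group had 1 or 2 libraries. Where the groups of a called gene did not overlap, that sign was fixed in advance, so the check says little about lane. With lane as a covariate, D2hgdh (edgeR adjusted p = 0.0759) and Glud1 (0.0577) were no longer called in WT, and Pcx was called higher in WT (0.0432) and TAZKo (0.023). With libraries scaled by total counts alone, the median of all genes moved by -0.106 in WT and the genome-wide calls became 2966 higher and 4817 lower, against 3750 and 3605, and the member calls became 5 higher and 19 lower. In TAZKo the same scaling moved the median by -0.094, with 2470 genes higher and 4393 lower against 3198 and 3111, and 3 members higher and 19 lower.

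**Figure D1:**
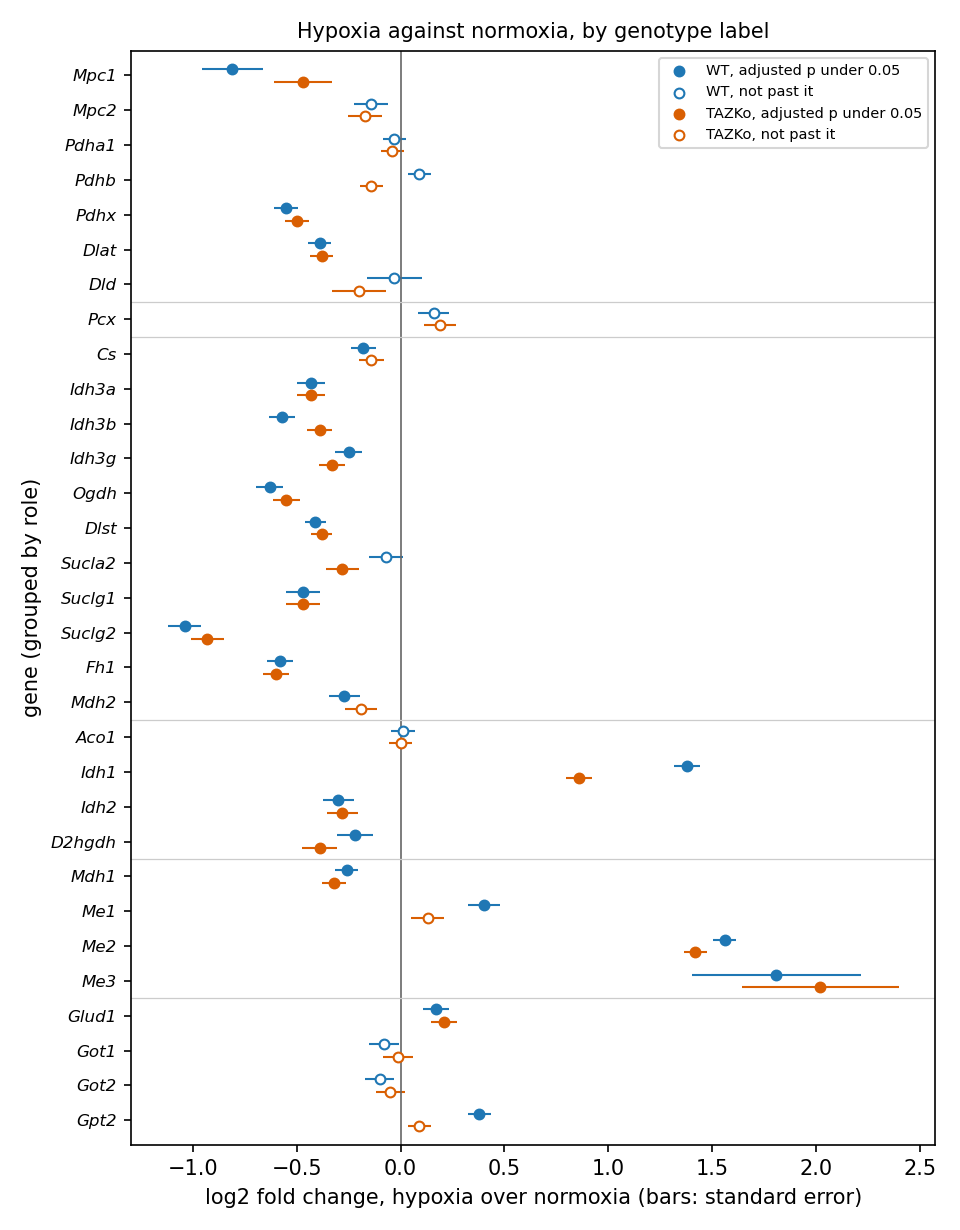
Log2 difference between hypoxia and normoxia (x axis, from edgeR) for each of the 31 members, in cells labelled WT and TAZKo, with bars for 1 standard error and filled points for adjusted p below 0.05. The cycle genes lie to the left of 0, and Me3, Me2 and Idh1 lie farthest to the right.

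At pyruvate entry and oxidation, 3 of the 7 genes fell in both genotypes and none rose. That share was 42.9%, where 25.0% of all genes fell in WT and 21.6% in TAZKo, and 51.0% and 43.8% were called in either direction. With 7 genes, no more is read from it. Mpc1, a subunit of the mitochondrial pyruvate carrier, was at 4.56, 4.17 and 4.35 CPM in WT normoxia and 2.05, 2.29 and 3.02 in WT hypoxia. In TAZKo it was at 4.08, 3.86 and 4.23 CPM in normoxia and 2.67, 3.29 and 2.82 in hypoxia. No hypoxic library reached a normoxic one, and the log2 difference was -0.81 (SE 0.146, edgeR adjusted p = 0.000417) in WT and -0.47 (SE 0.141, edgeR adjusted p = 0.0159) in TAZKo. Mpc1 rests on 41 to 137 counts a library and shares 23.2% of its 50-base words with other loci, mainly the processed pseudogene Mpc1-ps, which had 28 to 63 counts, so its level is uncertain. Pdhx, the component that anchors the E3 subunit to the pyruvate dehydrogenase core, fell from 51.6 to 53.9 CPM to 34.8 to 37.2 in WT (log2 -0.55) and from 47.8 to 52 CPM to 34.5 to 35.8 in TAZKo (log2 -0.5). Dlat, the E2 acetyltransferase core, fell by 0.39 and 0.38 on the log2 scale in WT and TAZKo. Pdha1, the catalytic E1 alpha subunit whose phosphorylation controls the complex, was at 154, 159 and 147 CPM in WT normoxia and 145, 157 and 149 in WT hypoxia. Those ranges overlapped, and the log2 difference was -0.03 (SE 0.0555, edgeR adjusted p = 0.685). The Pdha1 exons overlap Map3k15 on the other strand over 16.1% of their length, and Map3k15 had 3 to 26 counts. Mpc2, Pdhb and Dld, which encode the partner carrier subunit, E1 beta and E3, did not pass the test in either genotype, with log2 differences from -0.2 to 0.09. These results depended on the libraries used. Mpc2 was called lower in WT without WT normoxia 1 (-0.21, edgeR adjusted p = 0.0282) or WT hypoxia 1 (-0.25, 0.0261), and in TAZKo without WT normoxia 1 (-0.17, 0.0475) or WT hypoxia 1 (-0.2, 0.0499). In TAZKo, Pdhb was called lower in 7 of the 12 fits that left out 1 library and with only the 6 samples compared (-0.13, 0.0307), and Dld without WT normoxia 1 (-0.21, 0.0359).

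Within the cycle proper, 10 of 11 genes fell in WT and 9 of 11 in TAZKo, where 25.0% and 21.6% of all genes fell, with median log2 differences of -0.43 and -0.39. Suclg2, the GDP-forming beta subunit of succinyl-CoA ligase on chromosome 6 (95473009 to 95718800, minus strand, GRCm38), was at 32.2, 29 and 29.4 CPM in WT normoxia and 13.5, 14.9 and 15.8 in WT hypoxia. In TAZKo it was at 27.4, 27.4 and 24.4 CPM in normoxia and 13.9, 13.6 and 14 in hypoxia. All 6 hypoxic libraries lay below all 6 normoxic ones, with log2 differences of -1.04 (SE 0.0798, edgeR adjusted p = 1.9e-07) and -0.93 (SE 0.0798, edgeR adjusted p = 7.93e-07). Suclg2 shares 21.8% of its 50-base words with the pseudogene Gm15163, which had 1 to 13 counts against 269 to 813 for Suclg2. Its counterpart Sucla2, the ADP-forming beta subunit, was at 70.9, 90.1 and 83.8 CPM in WT normoxia and 74, 83.2 and 76.1 in WT hypoxia, which overlapped (log2 -0.07, edgeR adjusted p = 0.494). In TAZKo, Sucla2 fell by 0.28 on the log2 scale (edgeR adjusted p = 0.0111). Without WT normoxia 1, its difference in WT was -0.16 (edgeR adjusted p = 0.0389). Suclg1, the alpha subunit that both forms share, fell by 0.47 in each genotype.

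Ogdh, the E1 component of the 2-oxoglutarate dehydrogenase complex on chromosome 11 (6291633 to 6356642, plus strand), was at 338, 306 and 310 CPM in WT normoxia and 222, 194 and 198 in WT hypoxia. It was at 270, 255 and 259 CPM in TAZKo normoxia and 174, 186 and 177 in TAZKo hypoxia. Each hypoxic group lay below its normoxic group, by 0.63 (SE 0.065, edgeR adjusted p = 2.76e-06) and 0.55 (SE 0.065, edgeR adjusted p = 1.69e-05) on the log2 scale. Dlst, the E2 core of the same complex, fell by 0.41 and 0.38. Fh1, fumarate hydratase on chromosome 1 (175600374 to 175625635, minus strand), was at 128, 121 and 121 CPM in WT normoxia and 88.4, 83.5 and 76.7 in WT hypoxia. In TAZKo it was at 101, 95.9 and 93.5 CPM in normoxia and 65.5, 64.3 and 62.1 in hypoxia. Neither pair of groups overlapped, with log2 differences of -0.58 (SE 0.0631, edgeR adjusted p = 5.31e-06) and -0.6 (SE 0.0634, edgeR adjusted p = 5.78e-06). The 3 subunits of NAD-linked isocitrate dehydrogenase also fell in both genotypes: Idh3b by 0.57 in WT and 0.39 in TAZKo, Idh3a by 0.43 in each, and Idh3g by 0.25 and 0.33. Citrate synthase, Cs, fell by 0.18 in WT (edgeR adjusted p = 0.0255) and was at -0.14 in TAZKo (edgeR adjusted p = 0.0689). Its call in WT was lost without WT normoxia 1 (-0.14, edgeR adjusted p = 0.0501), and without WT hypoxia 1 its difference was -0.28. In TAZKo, Cs was called lower in 8 of the 12 fits that left out 1 library (adjusted p down to 0.0163) and with only the 6 samples compared (0.0198). Mdh2, the mitochondrial malate dehydrogenase, was at 901, 745 and 736 CPM in WT normoxia and 696, 644 and 634 in WT hypoxia. Those groups did not overlap and differed by -0.27 (SE 0.0752, edgeR adjusted p = 0.00811). WT normoxia 1 held its highest value, and without that library the difference was -0.17 (edgeR adjusted p = 0.0146). In TAZKo, Mdh2 differed by -0.19 (edgeR adjusted p = 0.055), and was called lower in 7 of the 12 fits that left out 1 library (down to 0.00397, without WT normoxia 1).

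The cytosolic and mitochondrial NADP-linked isocitrate dehydrogenases went opposite ways. Idh1, the cytosolic form on chromosome 1 (65158616 to 65186500, minus strand), was at 71.5, 77 and 77.4 CPM in WT normoxia and 186, 206 and 197 in WT hypoxia. In TAZKo it was at 65.9, 61.9 and 66.1 CPM in normoxia and 114, 123 and 114 in hypoxia. Every hypoxic library exceeded every normoxic one, by 2.61-fold in WT (log2 1.38, SE 0.0629, edgeR adjusted p = 9.83e-10) and 1.81-fold in TAZKo (log2 0.86, SE 0.0626, edgeR adjusted p = 1.79e-07). Idh2, the mitochondrial form, was at 391, 326 and 325 CPM in WT normoxia and 304, 274 and 265 in WT hypoxia. Its groups did not overlap, and it fell by 0.3 in WT (SE 0.0739, edgeR adjusted p = 0.00357). In TAZKo it fell from 304 to 308 CPM to 251 to 257 (log2 -0.28, SE 0.0739, edgeR adjusted p = 0.00812). D2hgdh, which oxidises D-2-hydroxyglutarate, fell by 0.39 in TAZKo (edgeR adjusted p = 0.00207). In WT its groups overlapped and it passed narrowly (-0.22, edgeR adjusted p = 0.0494), a call lost without WT normoxia 1 (-0.17, 0.12) or WT hypoxia 2 (-0.21, 0.0735), while leaving out WT hypoxia 3 gave -0.36. It shares 23.3% of its 50-base words with pseudogenes that had at most 7 counts. Aco1, the cytosolic aconitase that doubles as an iron-regulatory protein, gave differences of 0.01 and 0.0 (SE 0.0574 and 0.0573).

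Among the malate enzymes outside the cycle, 3 of 4 genes rose and 1 fell in WT, and 2 rose and 1 fell in TAZKo. Me3 is counted as risen in both, with a limit given below. Of all genes tested, 26.0% rose and 25.0% fell in WT, and 22.2% rose and 21.6% fell in TAZKo. The genes that rose encode malic enzymes, which turn malate into pyruvate: Me1, Me2 and Me3 in WT, and Me2 and Me3 in TAZKo. Me2, the mitochondrial NAD-linked form on chromosome 18 (73769903 to 73815449, minus strand), was at 161, 180 and 177 CPM in WT normoxia and 515, 509 and 506 in WT hypoxia. In TAZKo it was at 128, 127 and 123 CPM in normoxia and 341, 346 and 325 in hypoxia. The groups were far apart, at 2.95-fold in WT (log2 1.56, SE 0.0563, edgeR adjusted p = 1.05e-10) and 2.68-fold in TAZKo (log2 1.42, SE 0.0562, edgeR adjusted p = 3.1e-10). Me1, the cytosolic NADP-linked form, was at 64.6, 75.8 and 75.3 CPM in WT normoxia and 104, 92.4 and 88.3 in WT hypoxia (log2 0.4, SE 0.0774, edgeR adjusted p = 0.000726). Its difference in TAZKo was 0.13 (SE 0.0773, edgeR adjusted p = 0.182). Me1 shares 26.5% of its 50-base words with processed pseudogenes, so its level is uncertain. Me3, the mitochondrial NADP-linked form, had 7, 3 and 2 counts in WT normoxia, 11, 16 and 14 in WT hypoxia, 3, 3 and 7 in TAZKo normoxia and 13, 21 and 19 in TAZKo hypoxia. It was called higher in both (log2 1.81, SE 0.405, edgeR adjusted p = 0.00206, and log2 2.02, SE 0.378, edgeR adjusted p = 0.000738), but 2 of the normoxic libraries in each genotype held 3 counts or fewer. Me3 passed the count filter only through the hypoxic libraries, where it is high. Its calls are therefore not support for a rise. Mdh1, the cytosolic malate dehydrogenase of the malate-aspartate shuttle, fell by 0.26 and 0.32.

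Of the 4 genes of glutamate and the transaminases, 2 rose in WT and 1 in TAZKo, and none fell. Of all genes, 26.0% rose in WT and 22.2% in TAZKo, and 51.0% and 43.8% were called in either direction. With 4 genes, no more is read from these shares. Gpt2, the mitochondrial alanine transaminase on chromosome 8 (85492576 to 85527560, plus strand), was at 130, 128 and 125 CPM in WT normoxia and 161, 161 and 177 in WT hypoxia. It was at 223, 223 and 210 CPM in TAZKo normoxia and 239, 233 and 227 in TAZKo hypoxia. The WT groups differed by 0.38 (SE 0.0564, edgeR adjusted p = 8.16e-05) and the TAZKo groups, which lay just apart, by 0.09 (SE 0.0559, edgeR adjusted p = 0.205). Glud1, glutamate dehydrogenase, passed in both genotypes (0.17, edgeR adjusted p = 0.0404, and 0.21, edgeR adjusted p = 0.0151). These calls depended on the set of libraries fitted and on the scaling. In WT the call was lost on leaving out any 1 of the 12 libraries (edgeR adjusted p 0.0851 to 0.38, log2 down to 0.08). TAZKo libraries are not part of that comparison, and leaving out any 1 of them moved the median of all genes by -0.054 or -0.055. In TAZKo the call was lost on leaving out TAZKo normoxia 1, 2 or 3 or TAZKo hypoxia 1 or 2 (up to 0.133). Both calls were lost when libraries were scaled by total counts (0.06 and 0.12). Got1 and Got2, the cytosolic and mitochondrial aspartate transaminases, lay between -0.1 and -0.01 and were not called. Without WT hypoxia 1, Got2 was called lower in WT (-0.23, edgeR adjusted p = 0.00709), and with libraries scaled by total counts both were (Got1 -0.18, 0.0488, and Got2 -0.21, 0.0219). Pcx, the pyruvate carboxylase that makes oxaloacetate directly, missed the threshold with a log2 difference of 0.16 in WT (edgeR adjusted p = 0.0931), and so did the 0.19 of TAZKo (edgeR adjusted p = 0.0527). With samples blocked by replicate number it passed in WT (0.16, edgeR adjusted p = 0.041), and without WT normoxia 1 it passed in both (0.23, 0.00708, and 0.19, 0.0121). Leaving out WT hypoxia 1 instead took the difference in WT to 0.05 (0.613), and over the 12 such fits in TAZKo the lowest value was 0.13 (0.26).

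Between genotypes the mitochondrial alanine transaminase gene Gpt2 was higher in TAZKo, and Idh1, Me2, Fh1 and both aspartate transaminase genes were lower, in both conditions. The share of members called lay near that of all genes. In normoxia, 2 members were higher and 8 lower in TAZKo (32.3% called), against 30.4% of all genes, of which 15.6% were higher and 14.9% lower. In hypoxia, 2 were higher and 10 lower (38.7%), against 32.8% of all genes, of which 15.8% were higher and 16.9% lower. The member medians were -0.08 and -0.07, against 0.01 and -0.008 over all genes, and no member reached a log2 difference of 1, which 5.96% and 5.82% of all genes passed. Cs and Gpt2 were higher in both conditions, and Fh1, Got1, Got2, Idh1, Mdh2, Me2, Ogdh and Pcx were lower in both. Mdh1 and Me1 passed the threshold in hypoxia and missed it in normoxia, where the position of Mdh1 depended on the setting, and 19 members were called in neither condition. None of the 7 genes of pyruvate entry and oxidation was called in either condition. Without WT normoxia 1, 4 members were called higher and 12 lower in hypoxia, with Dlst, Glud1, Idh2 and Idh3a added. Calls rose over all genes in that fit too, to 2921 higher and 3228 lower, against 2283 and 2440 in the main fit. All 10 calls in normoxia and 12 in hypoxia kept their sign within both lanes, a check with the limit given above. Some chromosomes moved as a whole between the genotypes: relative to all genes, the median log2 difference was 0.3 in normoxia and 0.29 in hypoxia on chromosome 10 (Cs), -0.23 and -0.27 on chromosome 18 (Me2), -0.28 and -0.27 on chromosome 19 (Pcx and Got1), and -0.17 and -0.14 on chromosome 8 (Got2 and Gpt2). The part of these chromosome shifts in the results for those genes was not tested.

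**Figure D2:**
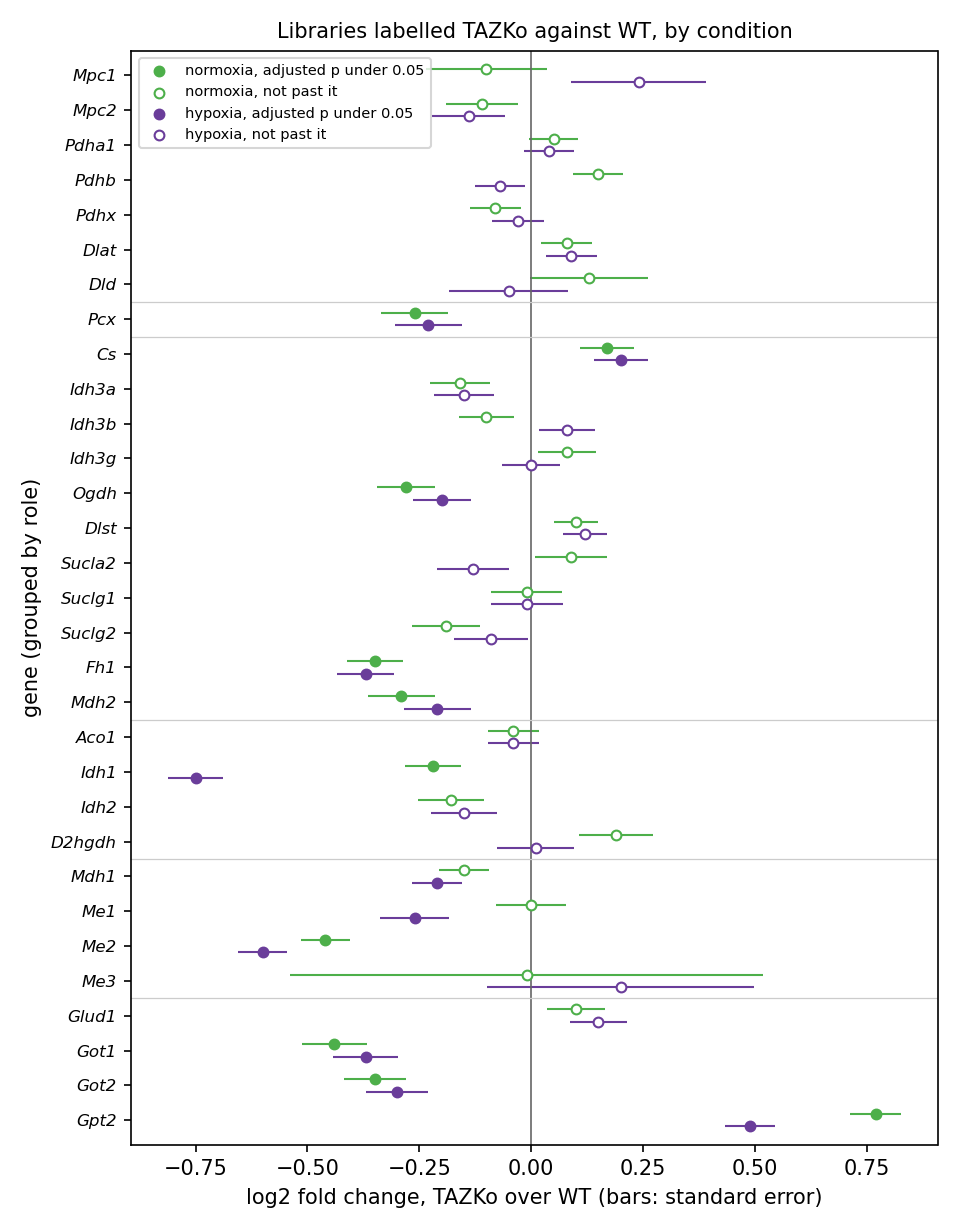
Log2 difference between TAZKo and WT (x axis, from edgeR) for each of the 31 members in normoxia and in hypoxia, with bars for 1 standard error and filled points for adjusted p below 0.05. Gpt2 lies farthest to the right in both conditions, and Idh1 in hypoxia lies farthest to the left.

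Gpt2 showed the largest genotype difference of the 31 members in normoxia. Every TAZKo library, at 210 CPM or more, exceeded every WT library, at 177 CPM or less, in either condition. The difference was 1.71-fold in normoxia (log2 0.77, SE 0.0565, edgeR adjusted p = 2.91e-07) and 1.4-fold in hypoxia (log2 0.49, SE 0.0562, edgeR adjusted p = 2.22e-05), against the direction of the median of its chromosome. Within lane 4 the difference was 0.79 in normoxia and 0.57 in hypoxia, and within lane 5 it was 0.74 and 0.44. Both aspartate transaminases went the other way. Got1, on chromosome 19 (43499752 to 43524605, minus strand), was at 154, 134 and 134 CPM in WT normoxia and 109, 105 and 97.5 in TAZKo normoxia. In hypoxia it was at 137, 131 and 132 CPM in WT and 106, 108 and 95.2 in TAZKo. No TAZKo library reached a WT one, and the log2 difference was -0.44 (SE 0.0721, edgeR adjusted p = 0.00046) in normoxia and -0.37 (SE 0.0722, edgeR adjusted p = 0.00153) in hypoxia. Got2 was at 109, 103 and 99.3 CPM in WT normoxia and 83.5, 82.5 and 78.5 in TAZKo normoxia, and it differed by -0.35 (SE 0.0693, edgeR adjusted p = 0.00187). In hypoxia Got2 differed by -0.3 (SE 0.0695, edgeR adjusted p = 0.00451). Got1 and Got2 both went in the direction of the median of their chromosomes. Got2 shares 32.3% of its 50-base words with the pseudogene Got2-ps1, which had 0 to 5 counts.

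In the cycle, Fh1 was lower in TAZKo by 0.35 (SE 0.0627, edgeR adjusted p = 0.000831) in normoxia and 0.37 (SE 0.0636, edgeR adjusted p = 0.000536) in hypoxia, and its 4 groups, with the values given above, did not overlap. Ogdh was lower by 0.28 (SE 0.0646, edgeR adjusted p = 0.00445) in normoxia and by 0.2 (SE 0.0649, edgeR adjusted p = 0.0337) in hypoxia. The hypoxic call for Ogdh was lost without WT hypoxia 1 (-0.14, 0.0933), TAZKo hypoxia 1 (-0.18, 0.0915) or TAZKo hypoxia 3 (-0.2, 0.0745). Mdh2 was at 680, 645 and 620 CPM in TAZKo normoxia and 578, 570 and 557 in TAZKo hypoxia, below every WT library of the same condition. Its normoxic difference of -0.29 (SE 0.0752, edgeR adjusted p = 0.00944) was -0.19 (0.0127) without WT normoxia 1. The hypoxic difference of -0.21 (SE 0.0753, edgeR adjusted p = 0.0457) was lost on leaving out any one of TAZKo normoxia 2, WT hypoxia 1, WT hypoxia 2 and TAZKo hypoxia 1, 2 or 3 (adjusted p up to 0.111). That call was also lost with DESeq2 size factors (edgeR adjusted p = 0.0633), library size alone (0.0824) and a mean of at least 5 CPM (0.0651). With DESeq2 itself the adjusted p was 0.0574. Cs was at 435, 409 and 401 CPM in WT normoxia and 489, 462 and 448 in TAZKo normoxia. The groups lay apart by a narrow margin, and Cs was called (0.17, SE 0.0603, edgeR adjusted p = 0.0497). That call held without WT normoxia 1. It was lost without each of the other 11 libraries in turn (edgeR adjusted p up to 0.275, log2 down to 0.1). It was lost too with DESeq2 size factors (edgeR adjusted p = 0.0957), no filter (0.25) and only the 6 samples compared (0.0965), and with DESeq2 (adjusted p = 0.0905). Hypoxic libraries are not part of this comparison, and leaving out any 1 of them moved the median of all genes by -0.033 or -0.034. In hypoxia the Cs difference of 0.2 (SE 0.0603, edgeR adjusted p = 0.0208) was lost without WT hypoxia 2 or 3 or TAZKo hypoxia 2 or 3 (up to 0.0926). Both Cs differences lay in the direction of the median of its chromosome. The remaining 7 cycle genes were not called, with log2 differences from -0.19 to 0.12. With a replicate block, Idh3a was called lower in normoxia (-0.16, edgeR adjusted p = 0.0329). On leaving out 1 library, Idh3a was called lower in normoxia in 3 of the 12 fits (down to 0.0136) and Suclg2 in 4 (down to 0.0242).

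Me2 was lower in TAZKo in both conditions, by 0.46 (SE 0.0556, edgeR adjusted p = 3.26e-05) in normoxia and 0.6 (SE 0.055, edgeR adjusted p = 2.85e-06) in hypoxia, in the direction of the median of its chromosome. Idh1 was lower by 0.22 (SE 0.0627, edgeR adjusted p = 0.0162) in normoxia and by 0.75 (SE 0.0617, edgeR adjusted p = 1.11e-06) in hypoxia, where the 3 TAZKo libraries lay at 123 CPM or less and the 3 WT libraries at 186 or more. Pcx was at 83, 70.9 and 71.7 CPM in WT normoxia and 65.4, 62.7 and 59.7 in TAZKo normoxia, and it differed by -0.26 (SE 0.0749, edgeR adjusted p = 0.0161). That call was lost with only the 6 samples compared (-0.27, edgeR adjusted p = 0.0509). The median of its chromosome, relative to all genes, was -0.28 in normoxia and -0.27 in hypoxia, about the size of the Pcx differences. The hypoxic Pcx difference of -0.23 (SE 0.0747, edgeR adjusted p = 0.0294) was lost without WT hypoxia 1 (-0.19, 0.0836), TAZKo hypoxia 1 (-0.23, 0.0684) or TAZKo hypoxia 3 (-0.22, 0.082). With no filter it was lost as well (-0.21, edgeR adjusted p = 0.0711). Me1 was called lower in hypoxia (-0.26, SE 0.0771, edgeR adjusted p = 0.0185), a call lost without WT hypoxia 1 (-0.21, 0.0631) or TAZKo hypoxia 3 (-0.23, 0.0713). Mdh1 was lower in hypoxia by 0.21 (SE 0.0562, edgeR adjusted p = 0.0108), a call lost with no filter (-0.19, edgeR adjusted p = 0.0709). In normoxia, Mdh1 and Idh2 missed the threshold (-0.15, edgeR adjusted p = 0.0593, and -0.18, edgeR adjusted p = 0.079). With a replicate block both were called lower (0.032 and 0.0421). Mdh1 was also called lower in 9 of the 12 fits that left out 1 library (adjusted p down to 0.0158), with DESeq2 (0.0353) and with a mean of at least 5 CPM (0.044). Idh2 was called in 5 of the 12 (down to 0.0243), while without WT normoxia 1 it was at -0.09 (0.241). With the block, Pdhb, at 0.15 (edgeR adjusted p = 0.0509), was called higher (0.0372).

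**Figure D3:**
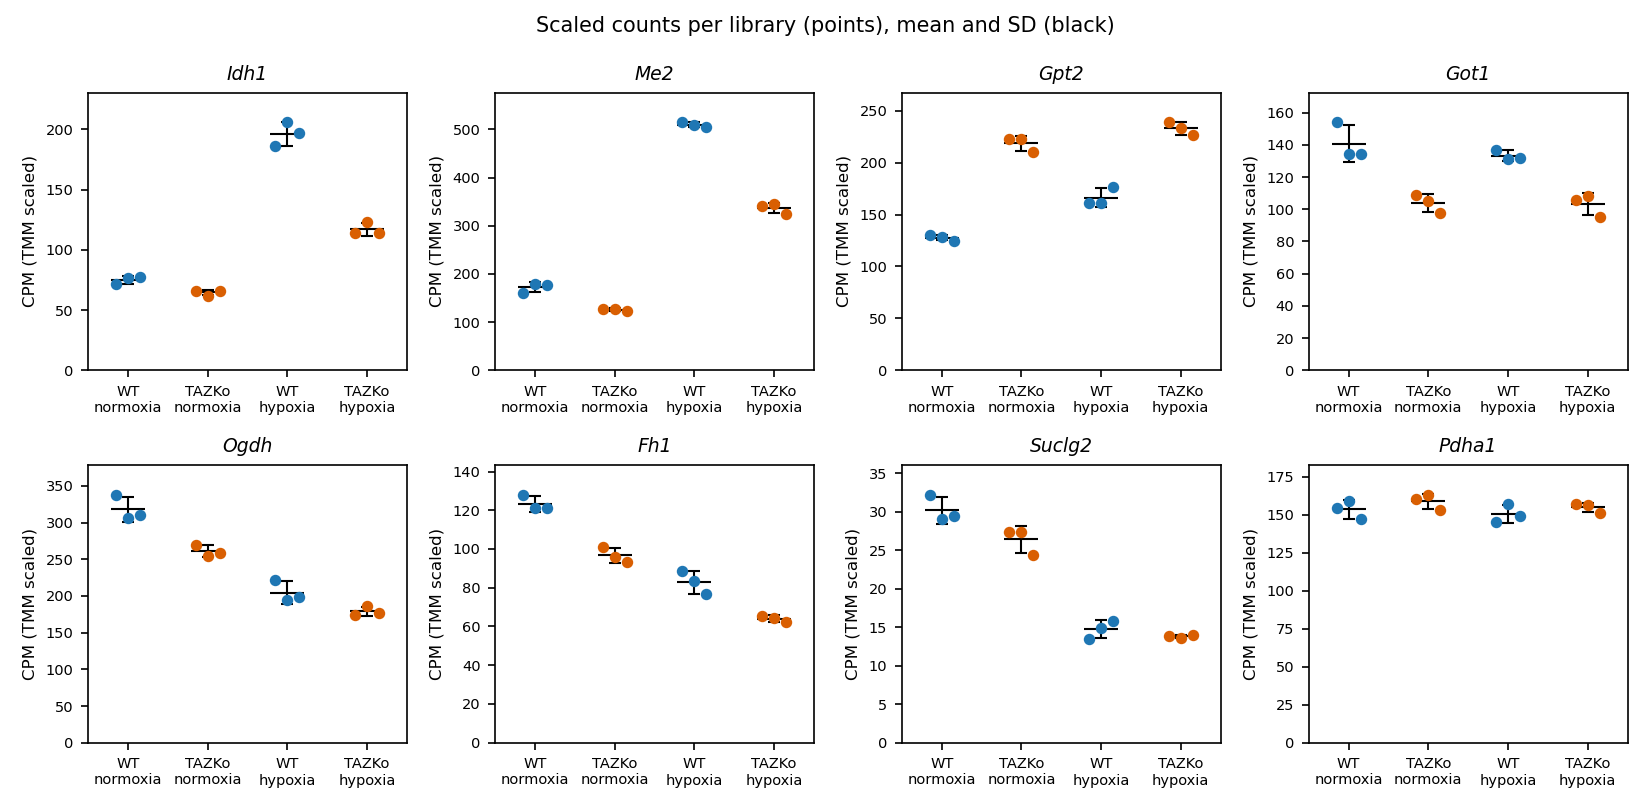
Level in CPM (y axis) of 8 members in the 12 libraries, grouped by genotype and oxygen, with 1 point a library in the order 1 to 3 and black marks for the mean and SD of a group. Idh1 and Me2 are higher in hypoxia and lower in TAZKo, Gpt2 is higher in TAZKo, Got1 lower, and Pdha1 overlaps across the groups.

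The question whether the hypoxia response itself differed by genotype was answered by the interaction term of the same fit, the response in TAZKo minus that in WT. Idh1 was the 1 member called, 3.23% of the list against 2.43% of all genes tested, of which 0.722% were called higher and 1.71% lower. Its rise in TAZKo was the smaller one, with a log2 term of -0.52 (SE 0.0878, edgeR adjusted p = 0.00646). That call was kept without each library in turn, at -0.46 to -0.54 (adjusted p up to 0.0386). Within sequencing lane 4 the Idh1 rise was 1.32 in WT and 0.83 in TAZKo, and within lane 5 it was 1.38 and 0.85. Gpt2 came next, with a response smaller by 0.29 in TAZKo (SE 0.0794, edgeR adjusted p = 0.0828), and it passed only without WT normoxia 1 (-0.3, edgeR adjusted p = 0.0357) or with DESeq2 (-0.27, adjusted p = 0.05). The responses of Me2 differed by -0.14 (SE 0.078, edgeR adjusted p = 0.435), of Me1 by -0.26 (SE 0.109, edgeR adjusted p = 0.255) and of Mpc1 by 0.34 (SE 0.204, edgeR adjusted p = 0.455), none of which passed. A member called in 1 genotype only, such as Me1, Cs, Mdh2 or Sucla2, is therefore not shown to respond differently.

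Ratios of CPM between related enzymes are given as descriptions and are not corrected for gene length. Idh1 over Idh2 was 0.219 ± 0.0312 in WT normoxia and 0.702 ± 0.0797 in WT hypoxia, against 0.211 ± 0.00893 in TAZKo normoxia and 0.463 ± 0.015 in TAZKo hypoxia (SD, n = 3 each). The ratio was higher in hypoxia in both genotypes, and the hypoxic TAZKo libraries lay between the WT hypoxic and the normoxic ones. Sucla2 over Suclg2 was 2.72 ± 0.461 in WT normoxia and 5.31 ± 0.428 in WT hypoxia, against 3.28 ± 0.134 in TAZKo normoxia and 5.15 ± 0.118 in TAZKo hypoxia (SD, n = 3 each), so the ratio of the ADP-forming to the GDP-forming subunit was higher in hypoxia. Me1 over Me2 went from 0.415 ± 0.0131 to 0.186 ± 0.014 in WT and from 0.573 ± 0.0113 to 0.234 ± 0.00385 in TAZKo (SD, n = 3 each). Mdh1 over Mdh2, the pair of malate dehydrogenases, had means of 0.402 in WT normoxia, 0.442 in TAZKo normoxia and 0.403 in each hypoxic group.

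**Figure D4:**
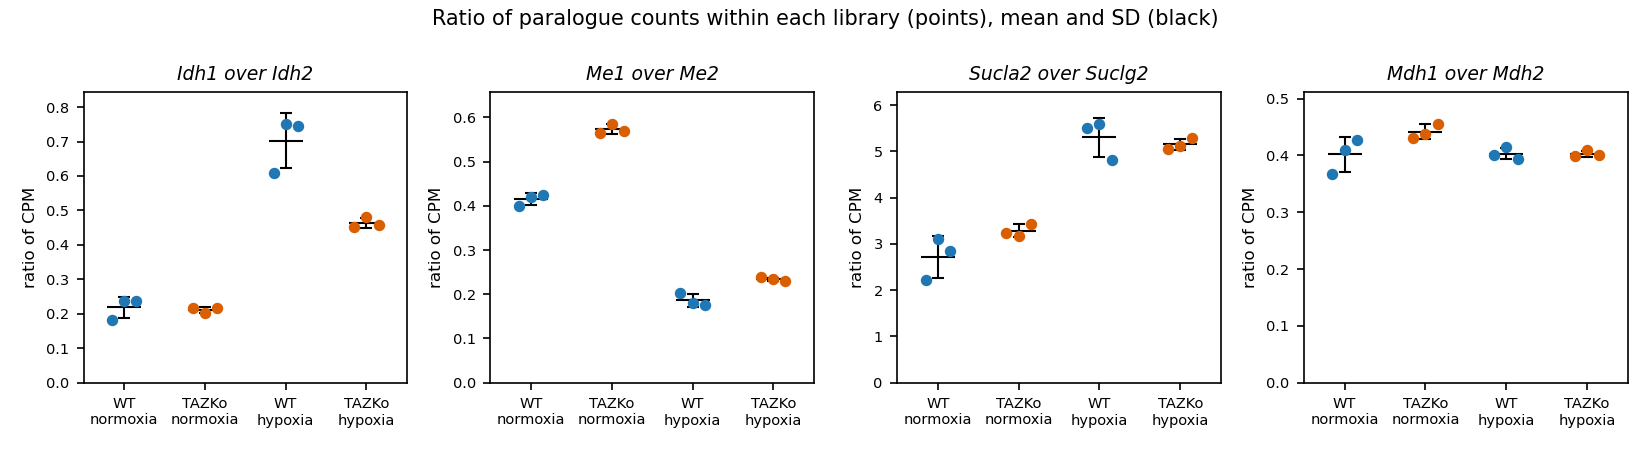
Ratio of CPM (y axis) for 4 pairs of related enzymes in the 12 libraries, with 1 point a library and black marks for the mean and SD of a group. Idh1 over Idh2 and Sucla2 over Suclg2 are higher in hypoxia, Me1 over Me2 is lower, and Mdh1 over Mdh2 has group means of 0.402 to 0.442.

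By level, Mdh2 led the list: per kilobase of exon it stood at 223 CPM in WT normoxia, ahead of Idh2 at 134, Mdh1 at 124 and Cs at 71.8, and the same 4 led in that order when the longest transcript was used as the length (495, 194, 150 and 138). Me3 was lowest on both lengths (0.0117 and 0.0382 CPM per kilobase). The 31 genes together took 0.472% to 0.516% of all counts in WT normoxia, 0.451% to 0.48% in TAZKo normoxia, 0.427% to 0.445% in WT hypoxia and 0.401% to 0.408% in TAZKo hypoxia. The share was lower in hypoxia in both genotypes, with no overlap between a normoxic group and its hypoxic group. This is a share of total counts without TMM scaling. The TMM factors ran from 1.0226 to 1.0479 in normoxic libraries and from 0.9509 to 0.98175 in hypoxic ones. On the TMM scale the fall is therefore smaller, and the WT groups overlap while the TAZKo groups stay apart.

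A list of 32 further genes of the same pathways (kinases and phosphatases of pyruvate dehydrogenase, lactate dehydrogenases, other cycle and glutamine genes, and genes that use citrate or oxaloacetate) was counted beside the members. In hypoxia 9 of them rose and 15 fell in WT, and 8 rose and 15 fell in TAZKo, 75% and 71.9% of the list against 51.0% and 43.8% of all genes. Genotype gave 5 higher and 7 lower in normoxia and 3 higher and 9 lower in hypoxia, 37.5% each, near the 30.4% and 32.8% of all genes. Pdk1, a kinase that inactivates pyruvate dehydrogenase, rose from a mean of 95.4 to 599 CPM in WT and from 95.2 to 629 in TAZKo (log2 2.65 and 2.73). Pdk2, another such kinase, fell by 1.17 and 1.1. Ldha, the lactate dehydrogenase subunit that favours pyruvate reduction, rose from 797 to 3280 CPM in WT and from 616 to 3130 in TAZKo (log2 2.04 and 2.34). Glul, glutamine synthetase, fell in both genotypes (by 1.39 and 1.03) and was lower in TAZKo by 0.92 in normoxia and 0.56 in hypoxia. Gls2, a glutaminase, rose from 5.28 to 11.9 CPM in WT and from 7.2 to 12.4 in TAZKo. Acly, which splits citrate into acetyl-CoA in the cytosol, rose from 387 to 838 CPM in WT and from 353 to 518 in TAZKo. It was the 1 gene of this list with an interaction call, -0.56 (edgeR adjusted p = 0.00531), the same sign as Idh1. Pck2, the mitochondrial phosphoenolpyruvate carboxykinase, was higher in TAZKo, at 336 against 157 CPM in normoxia (log2 1.1) and 267 against 155 in hypoxia (log2 0.78), the direction of Gpt2. Ldhb, the other lactate dehydrogenase subunit, and Ogdhl, a relative of Ogdh, were called lower in TAZKo in both conditions and were close to 0 there. Both passed the count filter only through the WT libraries, where they are high, so their genotype calls are not support for a difference. They are among the 7 and 9 genes counted above as lower with genotype. Ldhb had 53, 38 and 50 counts in WT normoxia and 3, 2 and 0 in TAZKo normoxia. Ogdhl had 103, 87 and 100 counts in WT normoxia and 4, 0 and 0 in TAZKo normoxia. In hypoxia Ldhb had 21, 23 and 29 counts in WT and 1, 3 and 3 in TAZKo, and Ogdhl 52, 64 and 71 against 5, 5 and 2.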

How the data were processed

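RNA from 12 samples of mouse embryonic fibroblasts was sequenced after library preparation with the TruSeq RNA v2 kit, per the labels' protocols. The authors deposited 1 table of whole-number counts per Ensembl gene for each sample, aligned to mm10 per the submitters' processing notes; the aligner, the counter and the gene annotation are not given in the sources used here. The kit does not mark strand, so reads of overlapping genes on opposite strands cannot be told apart, and reads shared with near-identical copies can be split or dropped by the counting.

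Symbols and coordinates were taken from GENCODE M21 (GRCm38, the same assembly as mm10), which matched 48349 of 48709 identifiers; no table row was without a gene. Groups followed the labels' genotype and condition. Genes were filtered with filterByExpr, leaving 14408, scaled by TMM and tested in 1 fit of all 12 samples with edgeR 4.0.16 (quasi-likelihood F test, glmQLFit and glmQLFTest, R 4.3.3), with 5 contrasts and Benjamini-Hochberg adjustment over all genes tested at 0.05. The biological coefficient of variation was 8.6%. SE is that of the log2 difference. Total counts of 21039451 to 31204510 set the precision, which covers counting error and the spread between samples only. The fit was tested on simulated data.

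The members, the further pathway genes and the markers were chosen with earlier results of these data known. Every member is named; a further pathway gene is named where it was called with a log2 difference of at least 1 in any contrast. A planned naming of the most alike pair in each role by correlation is not given, because the 12 samples fall into 4 separate groups. Alternatives were DESeq2 1.42.0 and its size factors, library size alone, no filter, a mean of at least 5 CPM, lane, a replicate block, only the 6 samples compared, and leaving out each sample. Replicate numbers were checked by correlating each sample's departure from its group mean (log2 CPM, prior count 2). Same-numbered samples gave 0.354, 0.149 and 0.228 between TAZKo and WT in normoxia and 0.368, 0.204 and 0.152 between hypoxia and normoxia in WT. Differently numbered samples gave -0.293 to 0.116 and -0.28 to 0.18 there, which reaches above the 0.152 of number 3. Between genotypes in hypoxia, same-numbered samples gave 0.055, -0.024 and 0.121, and between conditions in TAZKo 0.028, -0.024 and 0.095. Numbers also went partly with lane. They are therefore not shown to pair the samples, and the main fit uses no pairing.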

Additional observations from a re-analysis of the deposited data

Results flagged for a closer look

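The hypoxia response of Idh1 differed between the genotypes by the test of the difference itself, at -0.52 on the log2 scale (edgeR adjusted p = 0.00646): the rise in hypoxia was 2.61-fold in cells labelled WT and 1.81-fold in cells labelled TAZKo. All 3 WT hypoxia libraries, at 186 to 206 CPM, lay above all 3 TAZKo hypoxia libraries, at 114 to 123. The value was -0.46 to -0.54 in the alternatives that left out 1 library and -0.47 to -0.53 in the others run.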

How the results depend on the processing

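No call of a member changed direction under the alternatives run. Over the members' values, 2888 stayed on the same side of the threshold, 72 lost and 98 gained a call. In normoxia the genotype count of 2 members higher was 1 with DESeq2 size factors, with DESeq2, with no filter and with only the 6 samples compared, and 1 to 2 on leaving out a sample. In hypoxia it was 4 with only the 6 samples compared and 1 to 4 on leaving out a sample, while the 10 lower became 6 to 12. For the interaction, 350 genes became 574 with DESeq2 (2 members lower), 727 with no filter, 639 with the replicate block and 174 to 711 on leaving out a sample (1 to 2 members lower, 2 without WT normoxia 1). Requiring a log2 difference of at least 1 left 858 genes and 0 members for genotype in normoxia, 839 and 0 in hypoxia, 1610 genes with 3 members higher and 1 lower for hypoxia in WT, 1216 with 2 higher and 0 lower in TAZKo, and 82 genes and 0 members for the interaction. On leaving out a sample, genes called ran from 3349 to 4961 and 3765 to 6149 for genotype in normoxia and hypoxia and from 6510 to 7679 and 5367 to 7678 for hypoxia in WT and TAZKo. Members lower ran from 8 to 12 for genotype in normoxia, and for hypoxia members higher and lower ran from 5 to 6 and 15 to 18 in WT and from 3 to 5 and 15 to 20 in TAZKo. Leaving out a sample also moved the median log2 difference of all genes, by -0.011 to -0.038 for genotype in normoxia and -0.001 to -0.01 in hypoxia. For hypoxia against normoxia that median moved by -0.016 to -0.056 in WT and by 0.0 to -0.036 in TAZKo. The cause of the changes in calls was not tested. With the replicate block, member calls for genotype in normoxia and for hypoxia in WT changed only as given in the report. In the other comparisons, where same-numbered samples correlated less, the block gave 5518 genes with 2 members higher and 11 lower for genotype in hypoxia. It gave 7010 genes with 5 higher and 18 lower for hypoxia in TAZKo. Depth limits Me3, Mpc1, Ldhb and Ogdhl most, with 0 to 137 counts a library.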
